A study of Mus musculus with 30 samples.

Results

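The nuclear genes for subunits of respiratory complexes III and IV and of ATP synthase were followed in astrocytes and microglia sorted from the spinal cord of mice with experimental autoimmune encephalomyelitis (EAE), a model of multiple sclerosis in which mice are immunized with a myelin peptide. The set was chosen by name. It holds every protein-coding gene whose symbol starts with Uqcr (complex III), Cox4 to Cox8 (complex IV) or Atp5 (ATP synthase, leaving out Atp5s), which gave 41 of 30952 genes in the expression table, with 8 Uqcr, 17 Cox and 16 Atp5 genes. All mice were female C57BL/6, aged 8 to 10 weeks, and EAE was induced with a MOG peptide. Naive mice had no EAE, the EAE-vehicle mice received 20% Captisol, and the EAE-RIPK1inh-1 mice received the RIPK1 kinase inhibitor RIPK1inh-1 (GSK'547 in the sample labels) at 50 mg/kg by oral gavage, with dosing over 3 days from a clinical score of about 1. Astrocytes were gated as GLAST+CD11b-CD45-CD140a- cells and microglia as CD11b+CD45intCX3CR1+ cells. Each cell type had 4 naive, 6 EAE-vehicle and 5 EAE-RIPK1inh-1 libraries, 30 in all. The comparisons ask how EAE changed each cell type and which of those changes depended on RIPK1 kinase activity.

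The respiratory chain sits in the inner mitochondrial membrane. Complex III passes electrons from ubiquinol to cytochrome c, and complex IV, cytochrome c oxidase, passes them on to oxygen, with both complexes building the proton gradient that ATP synthase uses to make ATP. Catalysis in complex IV is carried out by subunits encoded in mitochondrial DNA, while the nuclear Cox genes encode the smaller subunits around them, several in pairs of a broadly expressed and a tissue-restricted isoform. In ATP synthase the F1 head makes ATP, the membrane ring of c subunits turns with the proton flow, and a peripheral stalk holds the head in place. In the brain, resting astrocytes and microglia can draw on both glycolysis and oxidative phosphorylation, and activated microglia are known for shifts between them.

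The values were log2 FPKM (fragments scaled by the length of the transcript and the mapped reads of the library), which the authors had quantile-normalized over the 30 libraries. Every library held the same sorted values, from 0 to 15.34, so read depth was unknown and only the order of genes within a library was free to differ. Low values could not be told from absence: a gene was counted as having signal in a library only above the lowest stretch of values there, which run in the order of the rows. By that measure 8710 to 20398 genes had signal in the microglia libraries and 6728 to 22981 in the astrocyte libraries, and 32 of the 41 genes had signal in all 30. The libraries under 9000 genes were naive microglia 4, EAE-vehicle astrocyte 1 and naive astrocyte 2. Differences below are on the log2 FPKM scale, with the standard error (SE) of a limma fit. A gene was called at the study's cutoff, a fold change over 1.5 with an unadjusted p under 0.05, and "rose" or "fell" is used only where the p adjusted over all genes tested was also under 0.05.

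The sorted cells carried the markers of their labels, and the markers moved with disease. In microglia, 8 of 10 microglial marker genes were called lower in EAE-vehicle than in naive mice and 1 higher, while 4 of 9 monocyte and neutrophil markers were called higher. The summed log2 FPKM of the microglial list ran from 98.3 to 103 in naive and from 81.9 to 86.8 in EAE-vehicle microglia, and that of the monocyte and neutrophil list from 17.5 to 50.6 and from 28.4 to 57.3. The T cell list called 0 of 9 genes in this comparison, at summed levels of 1.60 to 3.68 and 2.03 to 7.93. Ccr2, which marks infiltrating monocytes, had no signal in any naive microglia library. The ranges of the microglial list did not overlap between these groups, and those of the monocyte and neutrophil list did. The part of the changed cell mix in the results was not tested. In such bulk libraries, fewer cells of a type and less RNA per cell cannot be told apart.

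EAE was accompanied by higher levels of the subunit genes of all 3 complexes in microglia. Of the 41 genes, 40 had a difference above 0 between EAE-vehicle and naive microglia, beside 11723 of all 28958 genes tested. At the cutoff 27 of the 41 were called higher, a share set beside 6.13% of all genes. None was called lower. By adjusted p, 19 genes rose, against 2.37% of all genes. The 27 called genes were 4 of 8 Uqcr, 12 of 17 Cox and 11 of 16 Atp5 genes, and the 19 that rose were 3, 9 and 7. For 21 genes every EAE-vehicle library lay above every naive library, which held for 2.93% of all genes. The median difference was 1.30 over the 41 genes (Uqcr 1.49, Cox 1.24, Atp5 1.31), beside a median of -0.02 over all genes and 0.13 over the 2226 genes with a mean of at least 5.

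**Figure D1:**
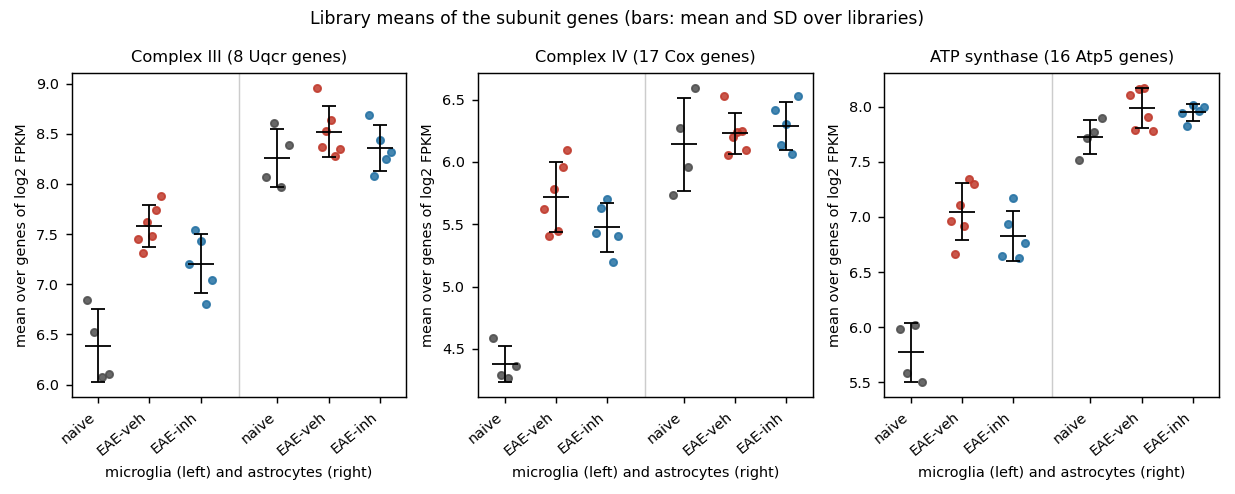
Mean log2 FPKM of the Uqcr, Cox and Atp5 genes in each of the 30 libraries, by cell type and group, with the group mean and SD. In microglia the EAE-vehicle libraries lie above all 4 naive libraries for each complex, whereas the astrocyte groups overlap.

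The separation was visible in the mean of each complex. The Uqcr mean lay between 6.08 and 6.84 in the naive microglia libraries, between 7.31 and 7.88 with EAE-vehicle and between 6.81 and 7.54 with EAE-RIPK1inh-1. The Cox mean lay between 4.27 and 4.59, between 5.40 and 6.10 and between 5.20 and 5.70 in the same groups. The Atp5 mean lay between 5.50 and 6.02, between 6.66 and 7.34 and between 6.63 and 7.17. Naive and vehicle libraries did not overlap for any of the 3 means, and the inhibitor libraries overlapped with the vehicle libraries for all 3.

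**Figure D2:**
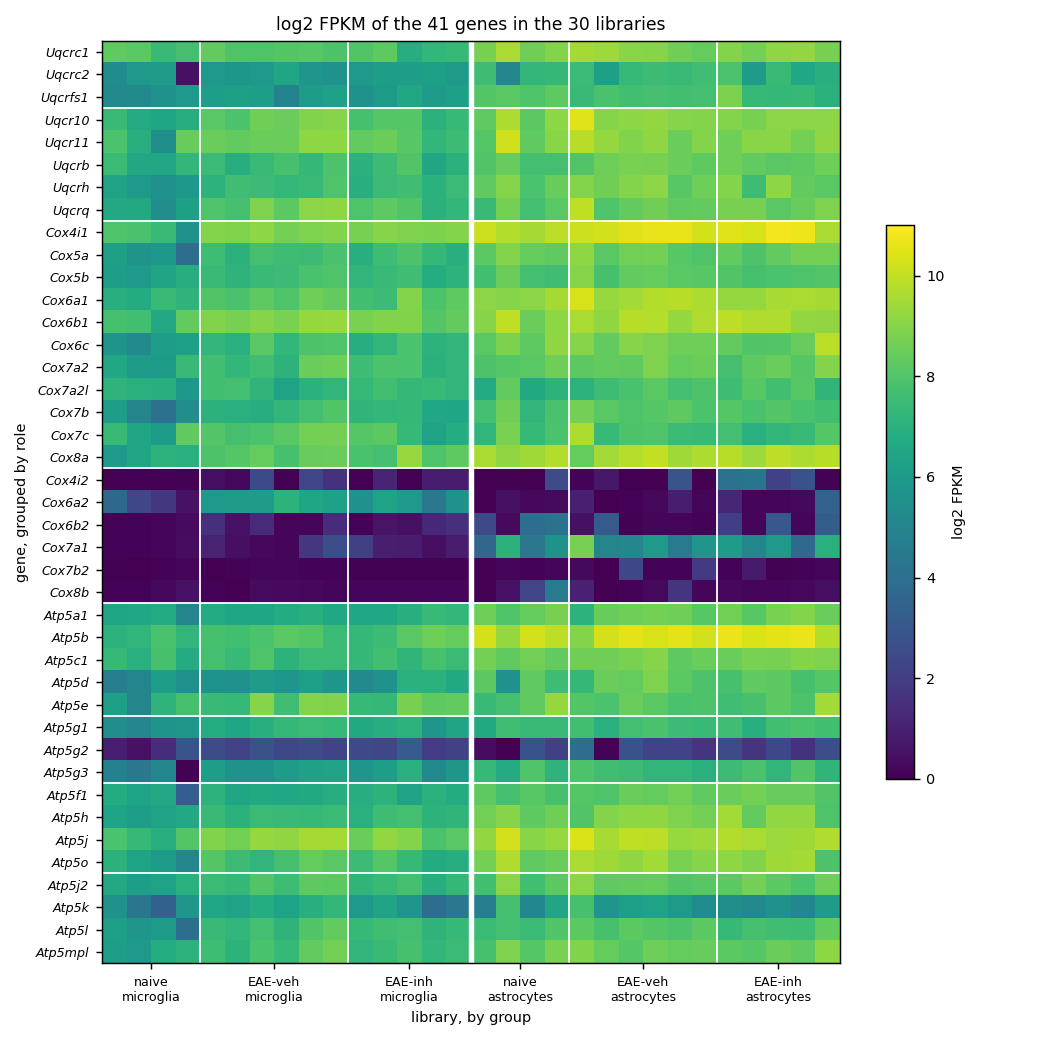
Log2 FPKM of the 41 genes (rows, by role within each complex) in the 30 libraries (columns, by cell type and group), on a common colour scale. Naive microglia have the lowest colours for most rows, the low values of Atp5g3 (0.06) and Uqcrc2 (0.50) stand in naive microglia 4, and Cox6a2 is at 4.34 or above in microglia of EAE mice and at 3.65 or below elsewhere.

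The promoters of a few genes that differ in this response are shown first, because the binding motifs of NRF1, ETS factors such as GABP, and YY1 are known from the promoters of nuclear respiratory genes. The windows are RefSeq sequences of GRCm38.p6 from 250 bases before to 50 bases after the transcription start. Cox5a, Cox7b and Atp5l rose in EAE microglia more than in EAE astrocytes, and Uqcrc1 had nearly equal levels in naive and EAE-vehicle microglia. Capitals mark matches, on either strand, to GCGCANGCG (NRF1) or CCGGAAG (ETS), and no match to AAGATGGC (YY1) was found in these 4 windows.
Atp5l, chr9:44920693-44920992 (minus strand): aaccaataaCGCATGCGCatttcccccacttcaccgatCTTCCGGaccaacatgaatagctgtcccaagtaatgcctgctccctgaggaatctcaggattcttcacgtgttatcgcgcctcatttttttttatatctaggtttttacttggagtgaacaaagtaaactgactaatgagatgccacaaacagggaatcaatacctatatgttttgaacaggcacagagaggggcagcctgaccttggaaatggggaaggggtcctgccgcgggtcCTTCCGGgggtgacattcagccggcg
Cox5a, chr9:57520982-57521281 (plus strand): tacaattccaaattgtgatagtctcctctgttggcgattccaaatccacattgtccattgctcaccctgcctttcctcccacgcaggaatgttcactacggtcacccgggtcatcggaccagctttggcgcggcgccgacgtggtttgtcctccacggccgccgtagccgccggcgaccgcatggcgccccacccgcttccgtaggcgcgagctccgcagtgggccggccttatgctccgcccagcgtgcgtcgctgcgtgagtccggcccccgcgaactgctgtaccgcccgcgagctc
Cox7b, chrX:106015450-106015749 (plus strand): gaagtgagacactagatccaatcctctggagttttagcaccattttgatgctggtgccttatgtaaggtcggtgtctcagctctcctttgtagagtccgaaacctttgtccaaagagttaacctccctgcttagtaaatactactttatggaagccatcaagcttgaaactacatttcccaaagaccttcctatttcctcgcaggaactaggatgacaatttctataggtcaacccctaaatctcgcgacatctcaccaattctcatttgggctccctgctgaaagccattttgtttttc
Uqcrc1, chr9:108936398-108936697 (plus strand): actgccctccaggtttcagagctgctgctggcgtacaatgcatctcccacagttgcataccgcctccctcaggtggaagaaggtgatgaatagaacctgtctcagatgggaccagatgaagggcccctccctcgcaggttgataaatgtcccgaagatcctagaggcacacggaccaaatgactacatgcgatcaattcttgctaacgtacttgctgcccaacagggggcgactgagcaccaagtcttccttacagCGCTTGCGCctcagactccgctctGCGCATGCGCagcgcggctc
The window of Atp5l held 1 NRF1 match and 2 ETS matches, and that of Uqcrc1 held 3 NRF1 matches, of which 2 overlap on opposite strands in the last run of capitals. The windows of Cox5a and Cox7b held none of the letters.

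Over the 32 of 41 genes listed in the promoter table, 9 windows (28.1%) held the NRF1 letters, beside 6.47% of 27025 promoters of the same length. The ETS letters were in 9 windows (28.1%, beside 9.12%) and the YY1 letters in 2 (6.25%, beside 2.88%). Any of these motifs was found in 9 of 14 Atp5, 3 of 5 Uqcr and 3 of 13 Cox windows, 46.9% together beside 16.5% of all promoters. Of the 15 genes with a match, 13 were called higher in EAE-vehicle microglia, with a median difference of 1.51. Of the 17 without, 8 were called higher, with a median of 0.89. These 17 include Cox6b2, Cox7a1, Cox7b2 and Cox8b, which were near the lowest values in microglia (means of 0.64, 0.82, 0.09 and 0.19) and not called. These counts are a description of letters in short windows and were not tested. 

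Within complex III 3 genes rose in EAE-vehicle microglia, all of them for small subunits. Of the 5 small-subunit genes 4 were called, with a median difference of 1.57, beside 0.45 for the 3 core and Rieske genes. Differences between subunit roles were not tested. Uqcrq, an accessory subunit of complex III, had values of 6.65, 6.67, 5.43 and 6.24 in naive microglia and a lowest, median and highest value of 7.74, 8.55 and 9.16 in the EAE-vehicle libraries. All vehicle libraries were above all naive ones. The difference was 2.27 (SE 0.36, 4.82-fold, adjusted p = 0.00159).

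Uqcrh, the hinge protein that contacts cytochrome c1, was at 6.36, 5.97, 5.54 and 5.86 in naive and at 7.09, 7.49 and 7.98 (lowest, median, highest) in EAE-vehicle microglia. These groups also did not overlap, and Uqcrh rose by 1.57 (SE 0.21, adjusted p = 0.000503). Uqcr10, another small subunit, rose from 6.87 ± 0.40 (SD, n = 4) to 8.51 ± 0.42 (n = 6, adjusted p = 0.00244), again without overlap. Uqcr11 was called with a difference of 1.51 (adjusted p = 0.0908), and without naive microglia 3 its difference was 0.95. Uqcrb, which binds ubiquinone, differed by 0.49 and was not called.

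None of the 3 genes for the core proteins and the Rieske protein of complex III was called. Uqcrc1, a core protein, had values of 8.33, 8.19, 7.45 and 7.76 in naive and 7.92, 8.02 and 8.34 (lowest, median, highest) in EAE-vehicle microglia. Naive libraries 1 and 2 lay within the vehicle range and the others below it, and the difference was 0.13 (SE 0.25, adjusted p = 0.870), or -0.03 without naive library 3. Uqcrfs1, the Rieske iron-sulfur protein that carries electrons within the complex, differed by 0.45, with overlapping groups. Uqcrc2, the other core protein, was at 5.37, 5.89 and 6.06 in naive libraries 1 to 3, within or next to the EAE-vehicle range of 5.59 to 6.49, and at 0.50 in naive library 4. With that library the naive SD was 2.65, and the difference was 1.47 (adjusted p = 0.487), or 0.16 without it. Cyc1, the cytochrome c1 gene of the same complex whose symbol is outside the rule, was called higher at 6.24 against 5.42 (adjusted p = 0.0805).

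In complex IV 9 genes rose, 8 of them for broadly expressed subunits. Of these 11 genes 10 were called, with a median difference of 1.38, and Cox7a2l, known as an assembly factor of respiratory supercomplexes, was the one not called (0.48). Cox7b, a small subunit of complex IV, was at 6.10, 5.02, 4.11 and 5.45 in naive and at 6.86, 7.18 and 8.01 (lowest, median, highest) in EAE-vehicle microglia. The groups did not overlap, and Cox7b rose by 2.15 (SE 0.35, adjusted p = 0.00204).

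Cox5a, which lies beside the catalytic subunits and binds a thyroid hormone metabolite, was at 6.27, 5.71, 5.88 and 3.92 in naive and at 7.06, 7.59 and 7.84 in EAE-vehicle microglia. All vehicle libraries were higher, with a difference of 2.12 (SE 0.37, adjusted p = 0.00367), and 1.61 without naive library 4. Cox5b, another nuclear subunit of complex IV, rose by 1.24 (SE 0.22, adjusted p = 0.00396). Cox4i1, the broadly expressed form of the regulatory subunit that binds ATP, was at 7.98, 7.84, 7.42 and 5.66 in naive libraries and in a narrow band of 8.71, 8.91 and 9.13 in EAE-vehicle microglia. It rose by 1.69 (SE 0.34, adjusted p = 0.00882), and by 1.17 without naive library 4. Cox6c, Cox8a, Cox6b1 and Cox6a1, small nuclear subunits, rose by 1.75, 1.58, 1.38 and 1.10. Cox7a2 (1.29) and Cox7c (1.14) were called with adjusted p of 0.0539 and 0.246, and the call of Cox7c was lost without naive library 2 or 3.

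Cox6a2, the isoform of subunit VIa best known from heart and skeletal muscle, had the largest difference of all 41 genes. It was at 3.65, 2.36, 1.77 and 0.52 in naive microglia, the last without signal, and at 5.90, 6.18 and 7.09 (lowest, median, highest) in the EAE-vehicle libraries. The groups were far from overlapping, and Cox6a2 rose by 4.23 (SE 0.51, adjusted p = 0.000179). Without naive library 4 the difference was 3.71. The log2 difference of 4.23 corresponds to 18.7-fold, but at these low naive values the ratio of FPKM depends on the offset before the log, which is not stated. In astrocytes Cox6a2 had signal in 3 of 15 libraries, with naive values of 0.51 or below. The broadly expressed isoform Cox6a1 stayed the more abundant one: the log2 level of Cox6a2 minus that of Cox6a1 had a median of -5.01 in naive microglia (-6.63 to -3.30), -2.07 in EAE-vehicle (-2.27 to -0.89) and -2.64 in EAE-RIPK1inh-1 microglia (-3.54 to -1.19). Cox6a2 shares 70 exon bases with Itgad, an integrin gene on the opposite strand, and the library preparation is not stated to keep strand. Itgad was at 0.25 in naive and 0.28 in EAE-vehicle microglia.

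Of the other tissue-restricted isoforms, only Cox4i2, the lung and hypoxia-linked form of subunit IV, was also called, at 1.17 ± 1.08 (SD, n = 6) against 0.03 ± 0.04 (n = 4, no library with signal), with an adjusted p of 0.284. Leaving out any 1 of 7 of these 10 libraries ended that call. Cox7a1, Cox6b2, Cox7b2 and Cox8b were low and not called, and Cox8b had no signal in any of the 15 microglia libraries. Several complex IV genes share exon bases with a neighbour, among them Cox4i1 (154 with Emc8), Cox6c (250 with Vps13b) and Cox5a (269 with Gm26631).

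**Figure D3:**
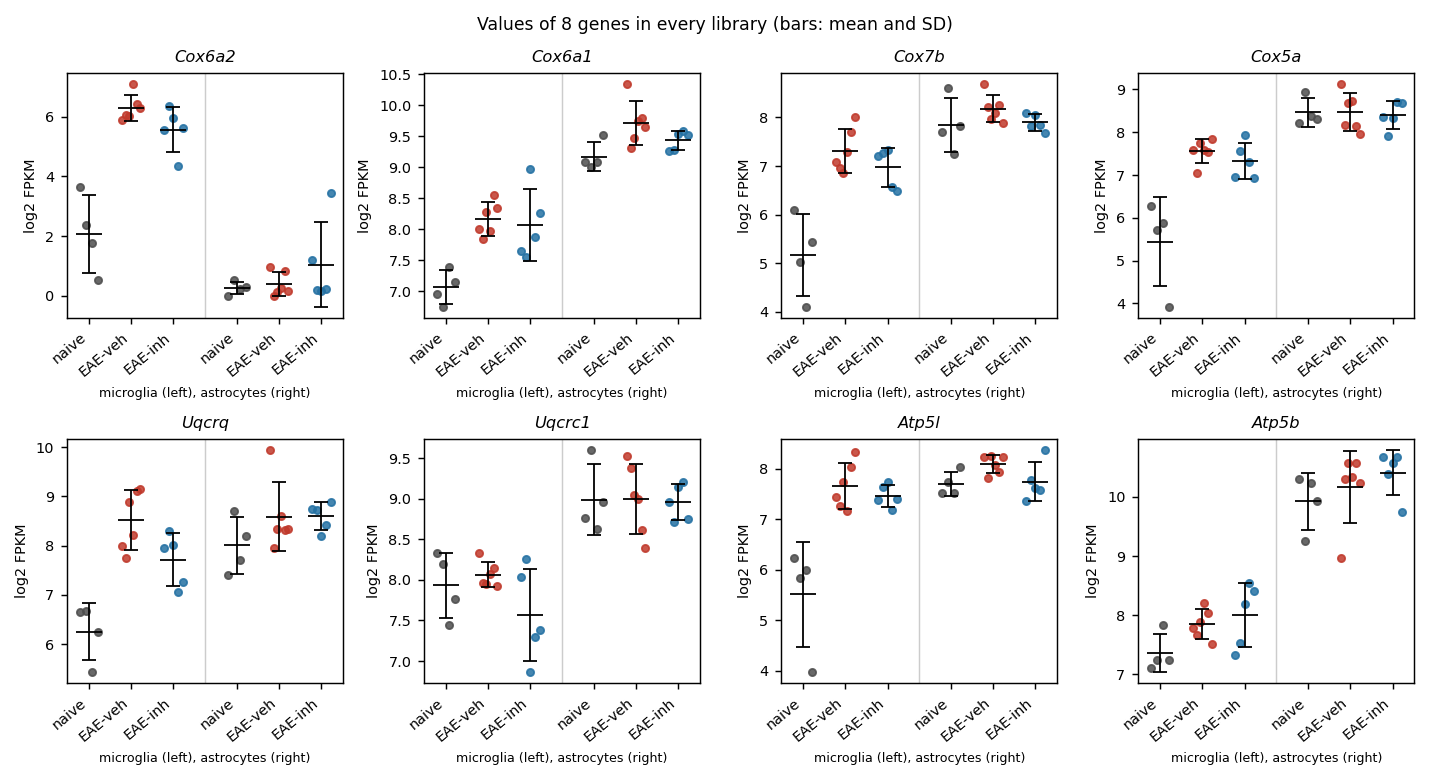
Log2 FPKM of 8 genes in every library, by cell type and group, with group mean and SD. Cox6a2 goes from 2.08 to 6.30 between naive and EAE-vehicle microglia and is at 3.46 or below in astrocytes, and Uqcrc1 has means of 7.93 and 8.06 in these microglia groups.

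In ATP synthase 7 genes rose, 1 for the c ring, 3 for the peripheral stalk and 3 for accessory membrane subunits. Of the 5 genes of the F1 head 1 was called and 0 rose by adjusted p (1 had an unadjusted limma p under 0.05). Atp5b, the catalytic beta subunit, was at 7.12, 7.25, 7.84 and 7.25 in naive and at 7.51, 7.83 and 8.20 (lowest, median, highest) in EAE-vehicle microglia. The groups overlapped through naive library 3, and the difference was 0.49 (exact permutation p = 0.0381, adjusted limma p = 0.441), which missed the fold cutoff. Atp5a1, Atp5c1 and Atp5d, the alpha, gamma and delta subunits, differed by 0.45, 0.31 and 0.48 and were not called, and the difference of Atp5a1 was 0.07 without naive library 4. Atp5e, the epsilon subunit, was called at 8.22 ± 0.82 (SD, n = 6) against 6.55 ± 1.20 (n = 4), with an adjusted p of 0.114. The median of the 5 genes was 0.48.

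All 3 c-ring genes, which encode the same mature c subunit, were called and 1 of them rose. Atp5g1 was at 5.40, 5.08, 5.69 and 5.82 in naive and at 6.47, 7.10 and 7.51 in EAE-vehicle microglia, without overlap, and rose by 1.56 (SE 0.27, adjusted p = 0.00316). Atp5g3 was at 4.82, 4.35, 5.04 and 0.06 in naive and 5.61, 6.11 and 6.33 in EAE-vehicle microglia. The groups did not overlap, but the difference of 2.44 (SE 0.75, adjusted p = 0.102) was 1.27 without naive library 4. Atp5g2 was low in both groups, at 2.44 against 1.44, and its call was lost without naive library 1 or 2. The log2 level of Atp5g1 minus that of Atp5g3 had a median of 0.69 in naive and 1.12 in EAE-vehicle microglia.

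The stalk and the accessory membrane subunits have 4 genes each. Atp5l, subunit g of the membrane part, was at 6.23, 5.84, 5.99 and 3.97 in naive and at 7.15, 7.59 and 8.34 in EAE-vehicle microglia. The groups did not overlap, and Atp5l rose by 2.15 (SE 0.38, adjusted p = 0.00367), or 1.64 without naive library 4. Atp5j2 (1.30) and Atp5mpl (1.33), other small membrane subunits, also rose, and Atp5k, subunit e, was called at 6.71 against 4.79 (adjusted p = 0.0606). In the stalk, Atp5o, which joins the stalk to the head, rose by 1.75 (adjusted p = 0.0141). Atp5j, coupling factor 6, rose by 1.61 (adjusted p = 0.0048), and Atp5h, subunit d, rose by 0.99 with an SE of 0.17 (adjusted p = 0.00347). Atp5f1, subunit b, differed by 0.95 and was not called, with naive values of 6.75, 6.39 and 6.65 and a value of 3.30 in naive library 4, without which the difference was 0.13. Atp5j shares 397 exon bases with Gabpa and Atp5o shares 243 with a second entry of the same name.

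Without naive microglia 4, 26 genes were called higher in EAE-vehicle microglia and 25 rose, with a median of 1.41. The annotation marks 17 of the 41 genes as confounded (41.5%, beside 50.8% of all genes). Of these 10 were called, with a median difference of 1.47, beside 17 of the 24 unmarked genes, with a median of 1.29. Over the 34 members with a mean of at least 5, Spearman's rho between the difference and exon length was -0.05, and over 2193 protein-coding genes of that level it was -0.34, both as descriptions across genes that are not independent.

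Genes that complete, build or feed these complexes were higher in part. Their counts are to be read beside 6.13% of all genes called higher and 2.37% higher by adjusted p. Of 6 subunit genes encoded in mitochondrial DNA, 5 were called higher in EAE-vehicle microglia and 2 rose, mt-Co1 from 9.24 to 10.84 (adjusted p = 0.0032) and mt-Atp6 from 4.28 to 6.38 (adjusted p = 0.024). Cycs, the gene of cytochrome c, was called at 5.55 against 4.27 (adjusted p = 0.16). Among 29 assembly factors of complexes III and IV, 9 were called higher and 4 rose, Cmc2 (2.23), Uqcc2 (1.59), Cox17 (1.46) and Coa5 (1.21). Of 6 ATP synthase assembly factors 2 were called and 0 rose (2 with an unadjusted limma p under 0.05). Of 5 complex IV-associated proteins 2 rose, Higd1a (1.70) and Ndufa4 (1.23). Complex I had 21 of 35 subunit genes called and 10 that rose, with a median of 1.00, and complex II had 2 of 4 called.

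Among 12 transcription factors, coactivators and other regulators of mitochondrial biogenesis 1 was called higher, beside 6.13% of all genes. This was Pprc1, a coactivator related to PGC-1alpha, at 3.20 against 1.99 (adjusted p = 0.125). The median difference of the 12 genes was -0.12. Tfam, which maintains and transcribes mitochondrial DNA, differed by 0.24, Nrf1 by -0.30, Gabpa by -0.54, Yy1 by -0.60 and Esrra by -0.31, none of them called. Ppargc1a, the gene of the coactivator PGC-1alpha, differed by -0.03.

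RIPK1 kinase inhibition was set against vehicle within EAE. In microglia 33 of the 41 genes had a difference below 0 between EAE-RIPK1inh-1 and EAE-vehicle, beside 17538 of all 28958 genes. The median was -0.21 beside -0.02 over all genes. At the study's cutoff 4 genes were called lower, beside 0.701% of all genes, and none was called higher. In the same comparison 2 of 10 microglial markers were called higher (median 0.26) and 0 of 9 monocyte and neutrophil markers were called (median -0.47), with summed levels of 81.9 to 93.6 and 23.0 to 67.1 in the inhibitor libraries. Their part in the subunit values was not tested. No gene of the 41 passed the adjusted test in limma, where the members' adjusted p was 0.930 or more and 5 had an unadjusted p under 0.05. By complex the medians were -0.37 for Uqcr, -0.23 for Cox and -0.13 for Atp5.

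The genes called lower were small or accessory subunits. Atp5k was at 6.33, 6.70 and 7.27 (lowest, median, highest) in the vehicle and at 5.95, 6.42, 5.74, 3.95 and 4.38 in the inhibitor libraries. Only inhibitor library 2 reached into the vehicle range, and the difference was -1.42 (SE 0.49, exact permutation p = 0.00649, two-sided). Uqcr10 was at 7.81, 8.10, 8.11, 7.06 and 7.36 with the inhibitor, against 7.91 to 9.01 with vehicle, a difference of -0.83 with overlapping groups (exact permutation p = 0.0152).

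Uqcrq was at 7.95, 8.29, 8.02, 7.05 and 7.27 with the inhibitor, overlapping with the vehicle range, a difference of -0.80 (exact permutation p = 0.0606). Atp5j was at 8.54, 9.22, 8.96, 7.82 and 8.17, a difference of -0.63 (exact permutation p = 0.0498). Inhibitor libraries 4 and 5 were the lowest for all 4 genes. Their means over the microglial marker list were 9.04 and 9.36. The same mean was 8.62, 8.19 and 8.63 in inhibitor libraries 1 to 3 and ran from 8.19 to 8.68 in the vehicle libraries. A link between these markers and the calls was not tested. With 1 library left out the count ran from 2 (without vehicle 3, 5 or 6, or inhibitor 4 or 5) to 6 (without vehicle 2). By role, the small subunits of complex III had a median of -0.73, the accessory membrane subunits of ATP synthase -0.43, and the core of complex III and the F1 head 0.13 and 0.15. Spearman's rho between this difference and exon length was 0.27 over the 34 members with a mean of at least 5. Over 2193 protein-coding genes of that level it was 0.20. The part of exon length in the role medians was not tested. Uqcrc1 was at 8.04, 8.25, 6.86, 7.30 and 7.38 with the inhibitor, a difference of -0.50 (exact permutation p = 0.0779). Cox6a2 was at 5.57, 6.36, 5.96, 4.34 and 5.63 with the inhibitor, a difference of -0.73 from vehicle (exact permutation p = 0.0519).

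EAE-RIPK1inh-1 microglia were also set against naive microglia, which are the same libraries as in the EAE-vehicle comparison. Of the 41 genes 27 were called higher, beside 5.35% of all genes, and 10 rose, beside 1.81%. The count that rose was 2 in a fit of these 2 groups alone. The called genes were 3 Uqcr, 11 Cox and 13 Atp5 genes, and the median difference was 0.96. Cox6a2 rose by 3.50 (SE 0.53, adjusted p = 0.00178), Atp5l by 1.95 (adjusted p = 0.0135), Cox5a by 1.89 (adjusted p = 0.0154) and Cox7b by 1.80 (adjusted p = 0.0141). Uqcrh rose by 1.37 (adjusted p = 0.00283), and Cox4i1, Cox8a, Cox6c and Atp5h rose by 1.66, 1.61, 1.41 and 0.93. Uqcrq, at 7.72 ± 0.53 (SD, n = 5) against 6.25 ± 0.58 (n = 4), rose by 1.47 and is in the count of 10. Its adjusted p was just under the cutoff, at 0.05 to the digits printed. Atp5g3 was called with a difference of 2.42 (adjusted p = 0.159), or 1.25 without naive library 4.

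Among the lists around the subunits, calls with the inhibitor in microglia were all lower, to be read beside the same 0.701% of all genes. Complex I had 6 of 35 genes called, with a median of -0.39. Of 6 mitochondrially encoded subunits 1 was called, mt-Cytb (-1.22), of 5 complex IV-associated proteins 1, Higd1a (-0.86), and of 4 complex II genes 1, Sdhb (-0.71). None passed the adjusted test. The assembly factors, cytochromes and biogenesis regulators had no gene called in either direction, with medians of -0.13, -0.07 and -0.02.

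**Figure D4:**
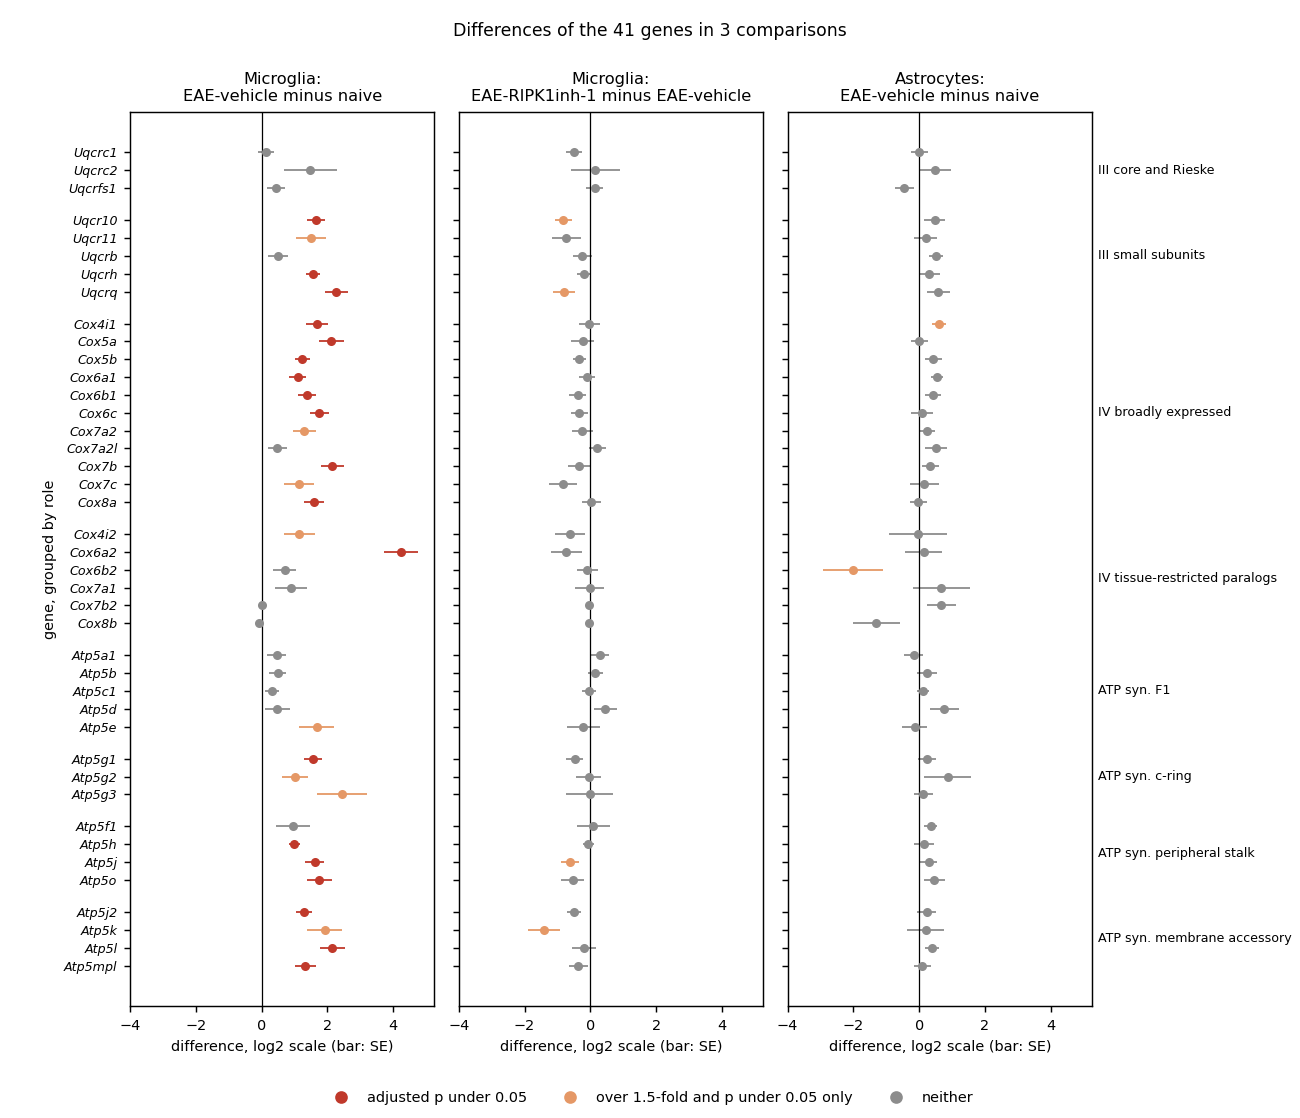
Difference in log2 FPKM of each of the 41 genes, with its SE, for EAE-vehicle against naive microglia, EAE-RIPK1inh-1 against EAE-vehicle microglia and EAE-vehicle against naive astrocytes. Red marks an adjusted p under 0.05 (19, 0 and 0 genes), orange the study's cutoff alone and grey neither.

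In astrocytes few of the same genes were called with EAE. Of the 41 genes 34 had a difference above 0 between EAE-vehicle and naive astrocytes, beside 17422 of all 30718 genes. The median was 0.24 beside 0.03 over all genes. At the cutoff 1 was called higher and 1 lower, beside 2.69% and 4.01% of all 30718 genes tested, and none passed the adjusted test in limma (4 had an unadjusted p under 0.05). Cox4i1 was at 10.10, 9.75, 9.52 and 9.86 in naive and between 10.16 and 10.62 in EAE-vehicle astrocytes. The groups did not overlap, and the difference was 0.61 (exact permutation p = 0.00476, the smallest that 210 splits can give, adjusted p = 0.373). Cox6b2, the testis form of subunit VIb, was at 2.44, 0.30, 3.99 and 4.11 in naive astrocytes and differed by -2.01 (exact permutation p = 0.114). In EAE-vehicle astrocytes it was at 0.51, 3.12, 0.08, 0.19, 0.17 and 0.11, with signal in 1 of 6 libraries. Its call was lost in 8 of 10 fits that left out 1 library. Uqcrfs1 was at 7.99 to 8.26 in naive and 7.43 to 7.85 in EAE-vehicle astrocytes, a non-overlapping difference of -0.45 that missed the fold cutoff (adjusted p = 0.835).

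These astrocyte counts depended on single libraries. Without naive astrocyte 2, one of the libraries with few genes with signal, 11 of the 41 genes were called, and without vehicle 4 or 5 none was. Leaving out naive 3 or vehicle 6 gave 1. Marker genes of other cells moved beside them: 6 of 9 T cell markers and 5 of 8 monocyte and neutrophil markers were called higher in EAE-vehicle astrocytes, with summed T cell levels of 3.07 to 11.4 in naive and 11.7 to 52.0 in EAE-vehicle libraries, and 4 of 7 oligodendrocyte markers (summed levels of 43.3 to 51.7 and 44.7 to 69.4) and 3 of 10 microglial markers were called higher. Of 8 astrocyte markers 5 were called lower and 1 higher, and of 6 neuronal markers 1 was called higher. Their part in the subunit values was not tested.

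With RIPK1inh-1, 15 of the 41 genes had a difference above 0 against vehicle in astrocytes, beside 12610 of all 30718 genes. The median was -0.07 beside -0.03 over all genes. In the same comparison 2 of 8 astrocyte markers were called higher (list median 0.68) and 1 of 6 neuronal markers lower (-0.85). No marker of the other lists was called, and the T cell list had a median of -0.70. The part of these markers in the subunit values was not tested. Cox4i2 was the one gene of the 41 called, higher, beside 1.84% of all genes. It was at 0.12, 0.73, 0.00, 0.04, 2.87 and 0.01 with vehicle and at 4.16, 4.27, 2.11, 2.78 and 0.07 with the inhibitor, so that both groups held high and low libraries. The difference was 2.05 (exact permutation p = 0.0476, adjusted p = 0.840), and the call was lost without inhibitor 1 or 2. Against naive astrocytes, which stood at 0.00, 0.08, 0.03 and 2.52, Cox4i2 was again called higher and Cox8b, a muscle form of subunit VIII, lower (-1.59), beside 1.98% and 2.64% of all genes. Without naive astrocyte 4 the Cox8b difference was -0.70 and not called. Counts in this comparison ran from 0 (without naive 3 or inhibitor 4) through 1 (without inhibitor 1, 2 or 3) to 4 (without naive 2). No gene passed the adjusted test in limma in either comparison, where 1 and 3 genes had an unadjusted p under 0.05.

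The pathway lists in astrocytes gave few calls. For EAE they are to be read beside 2.69% of all genes called higher and 4.01% lower. Of the mitochondrially encoded subunits mt-Co2 (1.20) and mt-Atp6 (1.29) were called higher with EAE, and 3 assembly factors, Ttc19, Cox11 and Coa6, were called lower. Polrmt, the mitochondrial RNA polymerase, was called lower (-3.17), and Ndufa4l2, a hypoxia-linked paralog of Ndufa4, higher (1.52). With the inhibitor against vehicle Ndufa4l2 was called lower (-1.78), and Esrra (2.49) and Gabpb1 (2.39) higher. Of 29 assembly factors of complexes III and IV 1 was called higher and 1 lower there. The cytochrome and ATP synthase assembly lists had no gene called in these comparisons, and complex I had 2 of 35 called lower with EAE.

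Naive microglia had lower levels of the subunit genes than naive astrocytes. Of the 41 genes 34 were called lower, beside 9.64% of all 30952 genes, and 1 higher, Cox6a2, beside 10.0%. By adjusted p 33 were lower, beside 5.93%, among them all 8 Uqcr, 11 of 17 Cox and 14 of 16 Atp5 genes. The median difference was -1.90 (Uqcr -1.86, Cox -1.72, Atp5 -1.99), beside -0.01 over all genes. The cell types were sorted by different gates and their libraries could differ in quality, which cannot be told apart from cell type.

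Cox7a1, the heart and muscle form of subunit VIIa, had no signal in any naive microglia library, at 0.10, 0.10, 0.17 and 0.35 in naive microglia and 3.62, 7.07, 4.35 and 5.67 in naive astrocytes. The groups did not overlap, and the fitted difference was -5.00 (adjusted p = 2.39e-05), whose size depends on how the file fills its lowest values. In naive astrocytes the log2 level of Cox7a1 minus that of its paralog Cox7a2 had a median of -3.39 (-4.33 to -1.05). Cox5a was at 8.22, 8.95, 8.38 and 8.30 in naive astrocytes, and naive microglia differed by -3.02 (adjusted p = 2.96e-07). For Cox8a, a broadly expressed small subunit, the difference was -2.86 (adjusted p = 8.76e-08). The F1 head and the core of complex III, none of which rose in EAE microglia, were also lower in naive microglia, with medians of -2.08 and -2.35. The smallest adjusted gaps were those of Uqcrb (6.98 against 7.98), Uqcrc1 (-1.06) and Atp5c1 (-1.30). The gap of Uqcrc2 was -2.35, or -1.04 without naive microglia 4, that of Atp5f1 -2.22 or -1.39, and that of Atp5g3 -3.73 or -2.56. Cox6a2 had no signal in naive astrocytes and was 1.82 higher in naive microglia by the fit (exact permutation p = 0.0286, the smallest that 70 splits can give, adjusted p = 0.0501). Naive microglia 4 (0.52) and naive astrocyte 2 (0.51) both lacked signal for Cox6a2. Their order, and with it the permutation p, depends on how the file fills its lowest values.

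All 6 mitochondrially encoded subunits were called lower in naive microglia too, as were 31 of 35 complex I genes, beside 9.64% of all genes. Cyc1 (-2.48) and Cycs (-1.93) were also called lower. Ppargc1a was at 0.20 in naive microglia and 4.62 in naive astrocytes (adjusted p = 9.58e-05).

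The difference between the EAE effect in microglia and that in astrocytes was tested directly as an interaction in the 30 libraries. Of the 41 genes 37 had a larger difference in microglia, beside 13262 of all 30952 genes. At the cutoff 25 of the 41 were called, beside 4.97% of all genes, and 4 passed the adjusted test, beside 0.604%. The median interaction was 1.09 (all genes -0.05, genes with a mean of at least 5 0.24). Centring each library on its median moved the median of all genes to -0.18 and the share of calls that were higher from 57.2% to 44.5%, and 22 of the 41 genes were then called, all higher, with 2 by adjusted p. The count by adjusted p was also 2 without naive microglia 2, EAE-vehicle microglia 5 or 6, naive astrocyte 4 or EAE-vehicle astrocyte 3 or 6, and 1 with a pseudocount of 0.1. Of these 4 genes, Cox6a2 had the largest interaction, 4.09 (SE 0.79, adjusted p = 0.0065), followed by Cox5a with 2.12 (SE 0.46, adjusted p = 0.0188), and both passed in all 20 fits that left out 1 library. Cox6a2 had signal in no naive and in 1 of 6 EAE-vehicle astrocyte libraries, so the size of its interaction depends on how the lowest values were filled. Cox7b, at 1.82 (SE 0.44, adjusted p = 0.0392), passed in 10 of 20, and Atp5l, at 1.76 (SE 0.44, adjusted p = 0.0492), in 4 of 20.

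Other genes were called in the interaction without passing the adjusted test. Cox6b2, which had no signal in naive microglia and was lower in EAE astrocytes at the cutoff, had an interaction of 2.71 (SE 0.99, adjusted p = 0.277). It was called in all 20 fits that left out 1 library. Its astrocyte call with EAE was lost in 8 of 10 such fits, with signal in 1 of 6 EAE-vehicle astrocyte libraries. The size of its interaction depends on how the lowest values were filled. Cox8a (1.61, adjusted p = 0.0521), Uqcrq (1.69, adjusted p = 0.131) and Uqcrh (1.26, adjusted p = 0.137) were also called. Atp5g3 was called at 2.32, or 1.15 without naive microglia 4, and Cox4i1 at 1.09, or 0.56 and not called without that library. Uqcr11 was called at 1.31, or 0.75 and not called without naive microglia 3, and Atp5k at 1.72, or 1.15 and not called without naive astrocyte 2. The F1 gene Atp5e was called at 1.81 (adjusted p = 0.287), and not without naive microglia 2. The F1 genes Atp5a1, Atp5b, Atp5c1 and Atp5d had interactions of 0.62, 0.25, 0.20 and -0.28, and Uqcrc1 one of 0.13, none of them called. By role the median was 1.48 for the accessory membrane subunits of ATP synthase, 1.32 for the c-ring genes and 1.26 for the small subunits of complex III, and 0.25 for the F1 head.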

How the data were processed

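RNA of sorted spinal cord astrocytes and microglia was captured on oligo(dT) beads, amplified as full-length cDNA and fragmented with Tn5. The authors aligned reads and computed FPKM in OmicSoft Array Studio, quantile-normalized the 30 libraries and deposited log2 FPKM values; the offset before the log is not stated, and depth is unknown. Gene names and positions came from the deposited annotation, and all 41 positions match GRCm38. Columns of 0 samples were left unmapped.

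The 41 genes, their roles and the gene lists were chosen with earlier results of these data known. limma 3.58.1 in R 4.3.3 (lmFit, eBayes with trend) was fitted over all genes of a cell type with its 3 groups, and over all 30 libraries for cell type and interaction, with Benjamini-Hochberg adjustment over all genes tested. The fit was tested on simulated data. Exact permutation tests were two-sided. Each library is a biological replicate per the study's methods. The labels do not say whether astrocytes and microglia of the same number come from the same mouse. Strand is not stated, and 13 members with shared exon bases cannot be told from their neighbours there. For Atp5g2 (with Mir688) and Atp5o (with the second entry of its name) a neighbour lies on the same strand. Genes were named if their adjusted p was under 0.05, if they were among the 3 largest called changes per complex and direction with a mean log2 of at least 1, or if they were core, Rieske, F1, c-ring or paired isoform genes. Motifs were searched on both strands of RefSeq promoters. The marker lists not given above called, in EAE-vehicle against naive microglia, 2 of 8 astrocyte and 1 of 7 oligodendrocyte genes higher, 1 of 6 endothelial and 1 of 6 neuronal genes lower, and called 0 of 6 endothelial genes in EAE-vehicle against naive astrocytes. Alternatives were a filter on low values, other pseudocounts, centring, array weights, a replicate block, fits of 2 groups and leaving out single libraries. Leaving out the 3 libraries with few genes with signal was chosen after seeing the data.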

Additional observations from a re-analysis of the deposited data

Results flagged for a closer look

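Atp5h in EAE-vehicle microglia had 1 library apart from the rest, with the lowest value, 7.06, in library 2 and the other 5 libraries between 7.35 and 7.52. Of 75 groups of members examined in this way 1 stood apart, and chance gives about 1 in 20. The 75 groups did not take in every gene in every group. In naive microglia, library 4 lay far below the other libraries for Atp5f1 (3.30), Uqcrc2 (0.50) and Atp5g3 (0.06), which were not among the 75 groups examined.

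The effect of EAE differed between microglia and astrocytes by the limma interaction test for 4 genes, in each case with the larger difference in microglia. The interaction was 4.09 for Cox6a2 (adjusted p = 0.0065), 2.12 for Cox5a (adjusted p = 0.0188), 1.82 for Cox7b (adjusted p = 0.0392) and 1.76 for Atp5l (adjusted p = 0.0492).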

How the results depend on the processing

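Leaving out 1 library gave 25 to 30 called genes for EAE-vehicle against naive microglia, 2 to 6 for RIPK1inh-1 against vehicle in microglia, 0 to 11 for EAE in astrocytes, 0 to 1 for the inhibitor against vehicle and 0 to 4 against naive in astrocytes. No called difference of a named gene turned its direction under the alternatives run. Differences that were not called could turn: in the interaction Atp5d went from -0.28 to at most 0.32 and Uqcrc1 from 0.13 to as low as -0.07 with 1 library left out. With array weights the inhibitor comparison in microglia had 19 called genes in place of 4 (2 by adjusted p in place of 0), and the astrocyte comparisons 6 (EAE, in place of 2, with 3 by adjusted p in place of 0), 0 (inhibitor against vehicle, in place of 1) and 5 (inhibitor against naive, in place of 2). Among the microglia libraries the largest weights were those of inhibitor libraries 5 (4.39) and 4 (3.51). For EAE in astrocytes centring left 1 gene, and leaving out the libraries with few genes with signal gave 7. For the inhibitor against naive astrocytes a filter on low values, a pseudocount of 0.1 and a larger pseudocount each gave 1, the fit of the 2 groups alone 0 and leaving out the libraries with few genes with signal 4. The cause was not tested.

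The labels do not say whether replicate numbers pair the samples. Deviations of same-numbered libraries correlated between -0.16 and 0.24, with 4 to 6 pairs per comparison of groups, which cannot decide it. With a replicate block, 1 gene was called for the inhibitor against vehicle in microglia, 0 for the inhibitor against vehicle and 1 against naive in astrocytes, and in EAE-vehicle microglia 25 were called and 11 rose, in place of 27 and 19. Counts of genes called at the cutoff for EAE-vehicle and inhibitor against naive microglia, for naive microglia against astrocytes and for the interaction stayed within 1.5 times under the alternatives run. Counts by adjusted p did not: for inhibitor against naive microglia 10 became 5 with the block, 2 in the fit of 2 groups and 17 with the filter, and for the interaction 4 became 2 with centring and 1 with a pseudocount of 0.1. Low-level genes are limited by the unknown depth.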
